A study of Bos taurus with 21 samples.

Results

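The genes described are 7 that anchor the membrane of the muscle fibre: *DMD*, *DAG1*, *SGCA*, *SGCB*, *SGCD*, *CAV3* and *ITGA7*. They were chosen by name, and each was measured by every non-control probe whose RefSeq transcript belongs to that gene in the cattle annotation. By this rule 6 of the 7 genes had a probe, 10 probes in all, out of 12538 named genes and 26628 named probes on the array. No probe was linked to *DMD*, which is not analysed here. The genes *SGCA*, *SGCB*, *SGCD*, *CAV3* and *ITGA7*, with 9 probes, passed the filter on expression, and *DAG1*, with 1 probe, lay under it.

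Dystrophin, the product of *DMD*, is a long rod under the fibre membrane that holds the actin cytoskeleton to a complex of membrane proteins. In that complex dystroglycan, from *DAG1*, spans the membrane and binds laminin in the basement membrane through its sugar chains, and the sarcoglycans steady its hold on dystrophin. Caveolin-3, from *CAV3*, shapes the small membrane pits of the fibre, and the integrin chain from *ITGA7* pairs with a beta chain to form the other main laminin receptor of muscle. Loss of these proteins is known to leave the membrane fragile under contraction and to cause muscular dystrophies or related myopathies.

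RNA was taken from the muscle of 21 foetuses at 110, 180, 210 and 260 days post conception (dpc), with 1 array per foetus. Of these, 10 were Blonde d'Aquitaine (BA), a heavily muscled French beef breed with a mutation of the myostatin gene that not all of its animals carry. The other 11 were Charolais (CH), a French beef breed used for comparison. The BA groups held 3, 2, 3 and 2 foetuses and the CH groups 2, 3, 3 and 3 at these stages. All foetuses came from artificial insemination of first-calf cows by bulls of their own breed, 2 sires per breed. The study states that the BA foetuses were not genotyped for the myostatin mutation, and no genotype is given for the CH foetuses. There were 3 males and 7 females in BA and 5 males and 6 females in CH. The labels name the muscle Longissimus thoracis, whereas the study's methods name Semitendinosus, so the muscle is uncertain. All 9 skeletal muscle fibre markers that had a probe were well above background on all 21 arrays. Between 29017 and 34501 of 43653 probes were well above background on an array, and all 10 probes of the genes described were so on all 21 arrays. Slides numbered 6 and were scanned over 3 days.

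Levels are given as log2 intensity, scaled so that the median probe of a typical array lies at 0. Probes differ in how brightly they bind, so the level of a probe is compared between foetuses and never with the level of another probe. A difference of 1 on this scale is a doubling of intensity. A change was called where limma's adjusted p, taken over all 20132 probes tested, was under 0.05. Where a gene had several probes, the brightest is given first and called the leading probe.

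From 110 to 260 dpc, averaged over the breeds, 4 of the 5 tested genes rose. These were *CAV3*, 3.90-fold, *SGCB*, 2.99-fold, *SGCD*, 2.27-fold, and *SGCA*, 1.38-fold. *ITGA7* was at 0.872-fold and was not called. Over all 7932 genes tested, 33.8% were called higher and 31.5% lower in the same comparison, so the 4 of 5 are to be read against a muscle in which most genes changed. The median difference was 1.18 for the 5 genes and 0.03 for all genes. By size of rise, *CAV3* was at place 254 of 7932, *SGCB* at 390, *SGCD* at 677, *SGCA* at 2051 and *ITGA7* at 5126. Muscle is a mixture of cells, and in such bulk samples fewer cells of a type and less RNA per cell cannot be told apart.

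**Figure D1:**
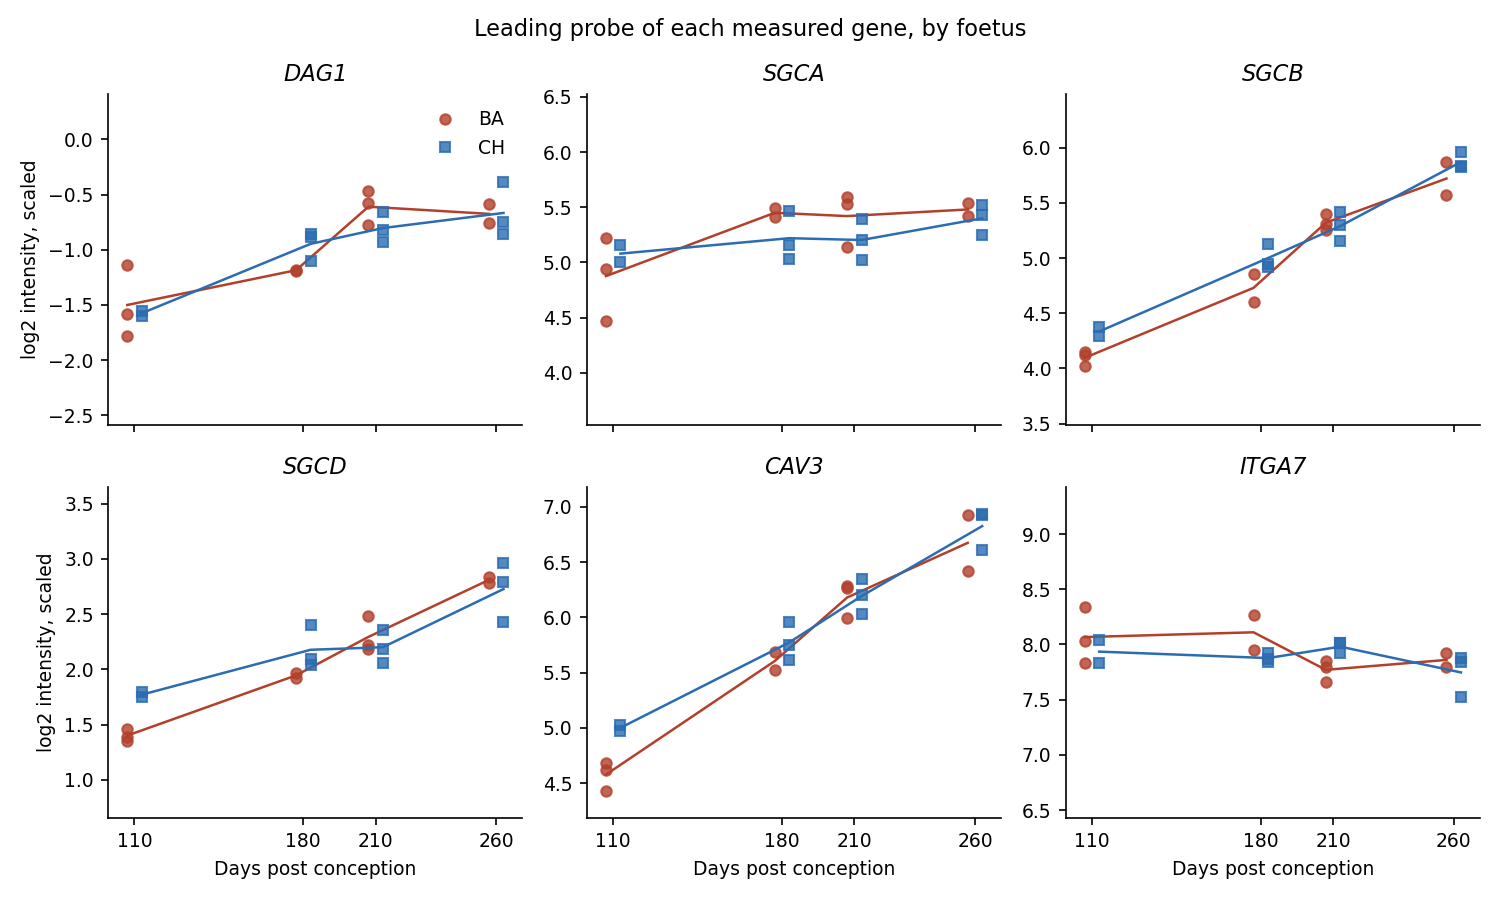
Scaled log2 intensity of the leading probe of each of the 6 genes with a probe (vertical axis) against days post conception (horizontal axis), with 1 point per foetus, BA as red circles and CH as blue squares, and lines through the group means. Every panel spans the same range of log2 units. In every panel but that of *ITGA7* all points at 260 dpc lie above those at 110 dpc, as was so for 26% of the genes tested. The points of *ITGA7* stay between 7.52 and 8.34.

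Dystroglycan comes from *DAG1*, whose probe A_73_P034986 lay below 0 on each array and so did not pass the filter. In BA its levels were −1.58, −1.78 and −1.14 at 110 dpc, −1.19 and −1.18 at 180 dpc, −0.58, −0.47 and −0.78 at 210 dpc, and −0.59 and −0.76 at 260 dpc. In CH they were −1.60 and −1.55, then −1.10, −0.86 and −0.88, then −0.82, −0.66 and −0.93, and finally −0.75, −0.39 and −0.86. All foetuses at 260 dpc were above all at 110 dpc, as was so for 26% of the genes tested, and each stage overlapped with the stage before it. In a fit without the filter on expression, *DAG1* was higher at 260 than at 110 dpc by 0.86 (95% confidence interval 0.59 to 1.14, adjusted p = 4.43e-05), and 25% of named genes were called higher in that fit. Of this difference, 0.47 fell between 110 and 180 dpc (adjusted p = 0.0236), 0.36 between 180 and 210 dpc (adjusted p = 0.135) and 0.03 between 210 and 260 dpc (adjusted p = 0.878).

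The sarcoglycans sit beside dystroglycan as a tight group of membrane proteins, and *SGCA*, *SGCB* and *SGCD* encode its alpha, beta and delta members. *SGCB*, beta-sarcoglycan, had 4 probes, led by A_73_109178. The BA levels of this probe were 4.12, 4.15 and 4.02 at 110 dpc, 4.86 and 4.60 at 180 dpc, 5.25, 5.31 and 5.40 at 210 dpc, and 5.57 and 5.87 at 260 dpc. The CH levels were 4.29 and 4.38, then 4.92, 5.13 and 4.95, then 5.42, 5.15 and 5.30, and finally 5.83, 5.82 and 5.96. No foetus of a stage overlapped with any foetus of the stage before, and 1.55% of all genes tested were higher without overlap at each of the 3 steps. *SGCB* rose by 1.58 from 110 to 260 dpc (SE 0.09, 95% confidence interval 1.40 to 1.76, adjusted p = 7.20e-11).

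The other *SGCB* probes also rose. Probe A_73_P279306 rose by 1.55 (SE 0.10), A_73_P316706 by 1.55 (SE 0.08) and A_73_111977 by 1.30 (SE 0.13). All 4 were called at each of the 3 steps between stages. At 110 and 260 dpc the foetuses spanned 3.63 to 4.25 and 5.41 to 5.75 on A_73_P279306, 1.63 to 2.07 and 3.32 to 3.58 on A_73_P316706, and −0.14 to 0.22 and 1.10 to 1.47 on A_73_111977. On each probe every foetus at 260 dpc was above every foetus at 110 dpc, as was so for 26% of the genes tested. Successive stages did not overlap on A_73_P279306, but 180 and 210 dpc overlapped on A_73_P316706, and A_73_111977 overlapped at each of the 3 steps.

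*SGCD*, delta-sarcoglycan, was measured by A_73_120980. In BA the levels were 1.39, 1.35 and 1.46 at 110 dpc, 1.92 and 1.97 at 180 dpc, 2.48, 2.22 and 2.18 at 210 dpc, and 2.78 and 2.84 at 260 dpc. In CH they were 1.75 and 1.79, then 2.09, 2.40 and 2.04, then 2.06, 2.18 and 2.36, and finally 2.43, 2.79 and 2.96. The stages 110 and 180 dpc did not overlap, a rise without overlap that 10.6% of all genes showed, while 180 and 210 dpc did. Every foetus at 260 dpc was above every one at 110 dpc, as was so for 26% of the genes tested. *SGCD* rose by 1.18 (SE 0.11, 95% confidence interval 0.96 to 1.41, adjusted p = 3.47e-08).

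*SGCA*, alpha-sarcoglycan, the member made almost only in striated muscle, was measured by A_73_P032686. The BA levels were 4.47, 5.22 and 4.94 at 110 dpc, 5.41 and 5.49 at 180 dpc, 5.59, 5.53 and 5.14 at 210 dpc, and 5.42 and 5.54 at 260 dpc. The CH levels were 5.0 and 5.16, then 5.16, 5.47 and 5.03, then 5.02, 5.39 and 5.20, and finally 5.25, 5.43 and 5.52. The stages overlapped except 110 and 260 dpc, where the highest foetus at 110 dpc was at 5.22 and the lowest at 260 dpc at 5.25. Of all genes tested, 26% were higher without overlap between these 2 stages. *SGCA* rose by 0.46 (SE 0.14, 95% confidence interval 0.17 to 0.75, adjusted p = 0.00707). This call was lost with quantile normalization (0.28, adjusted p = 0.0747), with the authors' unscaled values (0.07, adjusted p = 0.787) and with the arrays of scan day 2 alone (0.53, adjusted p = 0.101).

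*CAV3*, the muscle caveolin, was measured by A_73_117984. In BA the levels were 4.43, 4.68 and 4.62 at 110 dpc, 5.69 and 5.52 at 180 dpc, 6.28, 6.27 and 5.99 at 210 dpc, and 6.42 and 6.93 at 260 dpc. In CH they were 5.03 and 4.97, then 5.61, 5.96 and 5.75, then 6.03, 6.35 and 6.20, and finally 6.61, 6.93 and 6.94. As on the leading probe of *SGCB*, no stage overlapped with the stage before it. *CAV3* rose by 1.96 (SE 0.12, 95% confidence interval 1.72 to 2.21, adjusted p = 1.81e-10).

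*ITGA7*, the alpha chain of the muscle laminin integrin, had 2 probes, led by A_73_105378. The BA levels were 7.83, 8.34 and 8.03 at 110 dpc, 7.95 and 8.27 at 180 dpc, 7.80, 7.85 and 7.66 at 210 dpc, and 7.80 and 7.92 at 260 dpc. The CH levels were 7.83 and 8.04, then 7.84, 7.92 and 7.87, then 8.01, 8.01 and 7.92, and finally 7.88, 7.52 and 7.84. The ranges of all 4 stages overlapped. The second probe spanned 3.05 to 3.90, 3.07 to 3.64, 3.21 to 3.50 and 2.82 to 3.53 at the 4 stages, which also overlapped. The difference between 260 and 110 dpc was −0.20 for the leading probe (95% confidence interval −0.42 to 0.02, adjusted p = 0.106) and −0.31 for A_73_P090741 (−0.65 to 0.02, adjusted p = 0.0905). Both values were negative and neither was called, but the leading probe was called lower with normexp background correction (−0.27, adjusted p = 0.0242), quantile normalization (−0.74, adjusted p = 2e-05), the authors' unscaled values (−0.59, adjusted p = 0.0201) and without the BA foetus at 7.83 at 110 dpc (−0.26, adjusted p = 0.0344).

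The rises of the 5 tested genes were also set against each other within the same foetuses. For each of 10 pairs of leading probes the difference of their rises was compared with all 100 ways of exchanging 110 and 260 dpc foetuses within breeds, in a two-sided exact permutation test chosen after the values had been seen. The rise of *CAV3* was larger than that of *SGCB* by 0.39, of *SGCD* by 0.78 and of *ITGA7* by 2.16, each with an exact p of 0.01, the smallest this design can give. *SGCB* rose by 0.40 more than *SGCD* (exact p = 0.02, adjusted over the pairs 0.02). The other pairs were also at 0.01, and 0.0111 after adjustment over the 10 pairs. Pairs of other genes were not compared, so no share over all genes can be set beside these values. The 3 sarcoglycans rose by unequal amounts on these leading probes. The *SGCB* probe A_73_111977 rose by 1.30, against 1.18 for *SGCD*, while A_73_P279306 and A_73_P316706 were each at 1.55. Since a probe's response to a change in RNA differs between probes, the differences hold for probes and not strictly for transcripts.

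*CAV3* and *SGCB* were called higher at each of the 3 steps between stages, and *SGCD* at the first and the last. The steps differ in length, and the changes at them were not tested against each other. From 110 to 180 dpc *CAV3* rose by 0.90, *SGCB* by 0.65 and *SGCD* by 0.48, so 3 of 5 genes were called higher, against 13.6% of all genes. From 180 to 210 dpc *CAV3* rose by 0.50 and *SGCB* by 0.44, 2 of 5 genes against 4.85%, while *SGCD* was at 0.18 (adjusted p = 0.281). From 210 to 260 dpc *CAV3* rose by 0.57, *SGCB* by 0.49 and *SGCD* by 0.52, 3 of 5 genes against 25.4%. *SGCA* was at 0.36 in the first step (adjusted p = 0.0687), −0.02 in the second and 0.13 in the last, none of them called. *ITGA7* stayed between −0.12 and −0.01 at each step. The calls from 180 to 210 dpc were the least stable, since neither *CAV3* nor *SGCB* was called with the slide as a block, in female foetuses alone, on scan day 2 alone or with the authors' unscaled values, and without the BA foetus at 5.52 at 180 dpc *CAV3* was at 0.46 (adjusted p = 0.0501) and 1 of 5 genes was called.

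In BA alone, 4 of 5 genes were called higher at 260 than at 110 dpc, against 28.6% of all genes, and in CH alone 3 of 5, against 27.7%. The rise of *CAV3* was 2.10 among BA foetuses and 1.83 among CH foetuses. That of *SGCB* was 1.63 and 1.53, and that of *SGCD* 1.41 and 0.96, the CH value of *SGCD* not being called with the authors' unscaled values (0.59, adjusted p = 0.113). *SGCA* was the gene whose call differed, at 0.61 in BA (adjusted p = 0.0147) and 0.32 in CH (adjusted p = 0.179), but the sexes were uneven, with 2 males of 3 BA foetuses at 110 dpc and 0 of 2 at 260 dpc. With sex in the model it was at 0.46 in BA (adjusted p = 0.0567) and was called in CH, at 0.47 (adjusted p = 0.0491). The BA value was not called in females alone (0.26, adjusted p = 0.234), with quantile normalization (0.41, adjusted p = 0.0806), with the authors' unscaled values (0.19, adjusted p = 0.634), with the slide as a block (0.57, adjusted p = 0.0516) or on scan day 2 alone (0.58, adjusted p = 0.228). It was also lost without the BA foetus at 4.47 (0.40, adjusted p = 0.073) and without the BA foetus at 5.54 at 260 dpc (0.54, adjusted p = 0.101). *ITGA7* was at −0.21 in BA and −0.19 in CH, with both intervals spanning 0.

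**Figure D2:**
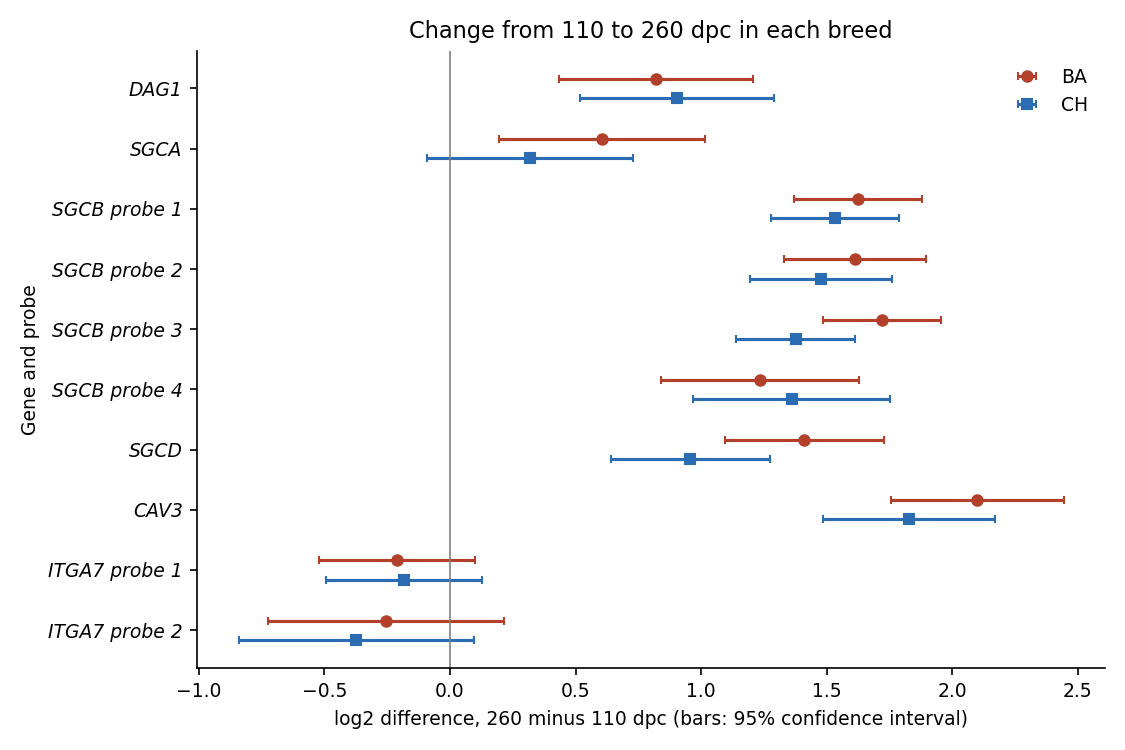
Log2 difference between 260 and 110 dpc (horizontal axis) for each of the 10 probes (vertical axis), BA as red circles and CH as blue squares, with 95% confidence intervals from the limma fit, which for *DAG1* was made without the filter on expression. The intervals of the breeds overlap at every probe, and those of both *ITGA7* probes span 0.

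The difference between the breeds in this rise, BA minus CH, was not called for any of the 5 genes, and 0% of all genes were called. It was 0.45 in *SGCD* (95% confidence interval 0.01 to 0.90, adjusted p = 0.701), 0.29 in *SGCA* (−0.30 to 0.87), 0.27 in *CAV3* (−0.21 to 0.76), 0.09 in *SGCB* (−0.27 to 0.45) and −0.03 in *ITGA7* (−0.47 to 0.41). At an unadjusted p under 0.05, limma gave 1 of the 5 genes, *SGCD*, and 577 of all 7932 genes. One further *SGCB* probe, A_73_P316706, was at 0.34 (0.01 to 0.68, adjusted p = 0.701). The interval of *SGCD* still allows its rise to differ between the breeds by up to 0.90. The sexes ran opposite ways here. BA held 2 males of 3 at 110 dpc and 0 of 2 at 260 dpc, and CH 0 of 2 and 2 of 3. With sex in the model the difference was −0.015 in *SGCA* and −0.008 in *SGCB*, while *CAV3*, *SGCD* and *ITGA7* kept their sign.

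Averaged over the stages, BA and CH did not differ past the threshold in any of the 5 genes, with 0.403% of all genes called. *CAV3* was lower in BA by a log2 difference of −0.19 (95% confidence interval −0.36 to −0.02, adjusted p = 0.337). *SGCB* was at −0.15 (−0.28 to −0.03, adjusted p = 0.291) and *SGCD* at −0.11 (−0.26 to 0.05, adjusted p = 0.569). *SGCA* was at 0.08 (−0.12 to 0.28) and *ITGA7* at 0.07 (−0.08 to 0.22), and *DAG1*, without the filter on expression, at 0.004 (−0.18 to 0.19). None of these intervals reached beyond 0.36 in either direction.

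A two-sided exact permutation test over all 20000 ways of exchanging the breeds within stages, not adjusted for the number of genes, gave p = 0.0144 for *SGCB*, p = 0.0385 for *CAV3*, p = 0.208 for *SGCD*, p = 0.398 for *ITGA7*, p = 0.418 for *SGCA* and p = 0.96 for *DAG1*. At an unadjusted p under 0.05, limma likewise gave 2 of the 5 genes, *CAV3* and *SGCB*, and 951 of all 7932 genes. The 4 *SGCB* probes were all lower in BA, at −0.15, −0.22, −0.15 and −0.09, and the lowest adjusted p among them was 0.157. These probes measure 1 gene in the same foetuses and are not separate evidence.

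**Figure D3:**
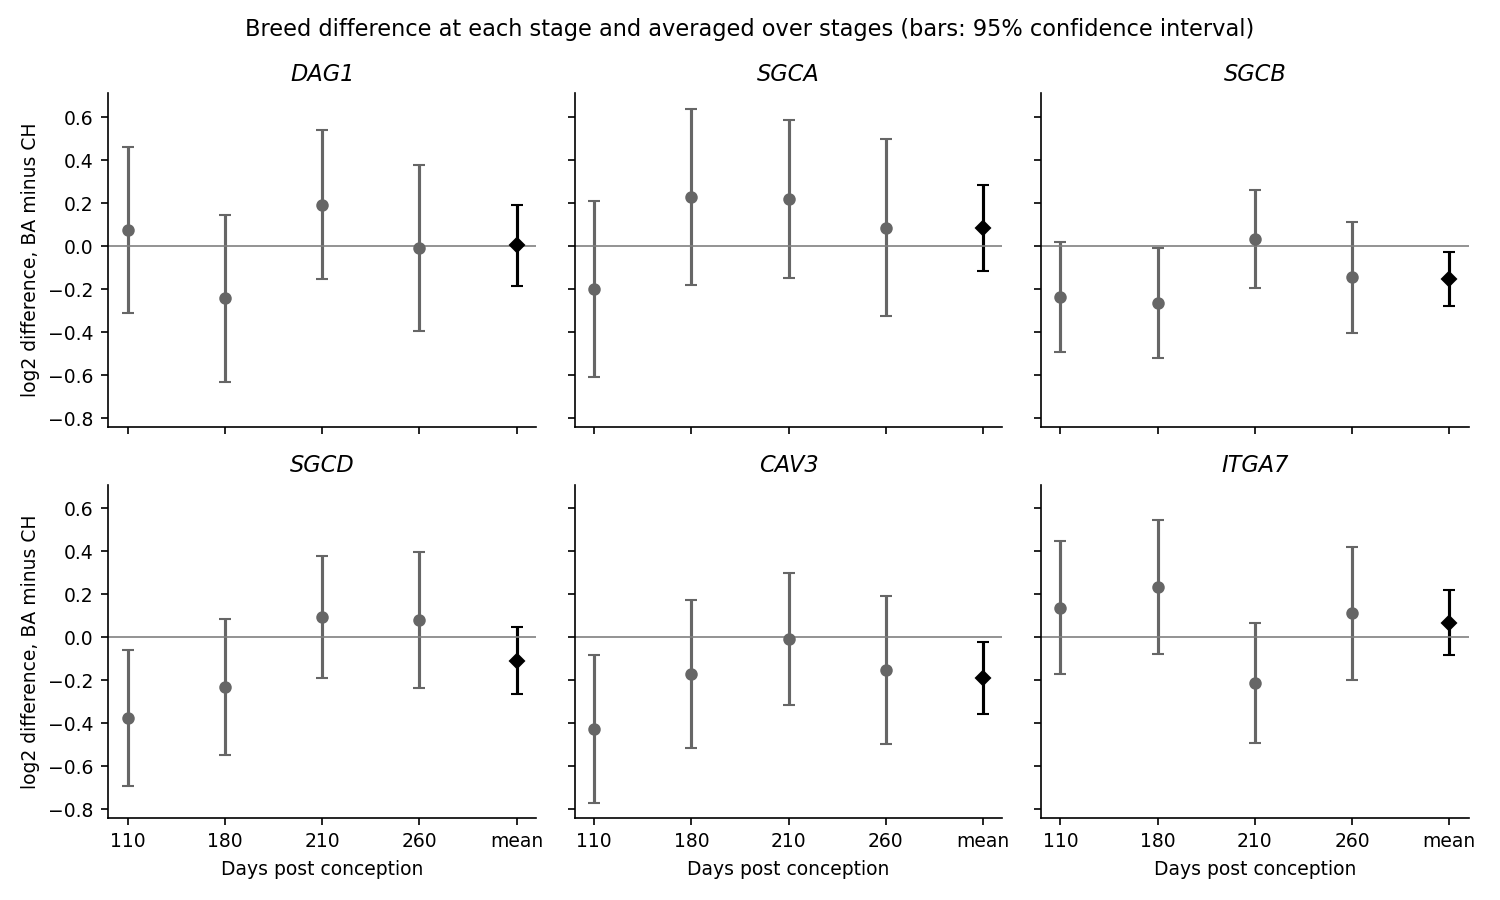
Log2 difference between the breeds, BA minus CH (vertical axis), at each stage in days post conception (grey circles) and averaged over the stages (black diamonds) for the leading probe of 6 genes, with 95% confidence intervals from the limma fit, which for *DAG1* was made without the filter on expression. The values of *CAV3* and *SGCD* are lowest at 110 dpc, at −0.43 and −0.37, and lie between −0.15 and 0.09 at 210 and 260 dpc.

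At 110 dpc the BA foetuses lay below both CH foetuses in *CAV3*, *SGCB* and *SGCD*, 3 of the 5 tested genes, and in 28.9% of all genes the breeds did not overlap in 1 direction or the other. *CAV3* spanned 4.43 to 4.68 in BA and 4.97 to 5.03 in CH, a difference of −0.43 (95% confidence interval −0.77 to −0.08, adjusted p = 0.258). *SGCD* spanned 1.35 to 1.46 in BA and 1.75 to 1.79 in CH, a difference of −0.37 (−0.69 to −0.06, adjusted p = 0.278). *SGCB* spanned 4.02 to 4.15 in BA and 4.29 to 4.38 in CH, a difference of −0.24 (−0.49 to 0.02, adjusted p = 0.399). None of the 5 genes was called at this stage by limma, where 0.24% of all genes were, and 2 genes, *CAV3* and *SGCD*, were under 0.05 before adjustment, as were 11.9% of all genes. The BA foetuses were also below the CH foetuses on 2 of the other 3 *SGCB* probes, and overlapped with them on A_73_111977. Breed was mixed with sex at this stage, with 2 males among the 3 BA foetuses and 0 among the 2 CH foetuses. The BA female was at 4.68 in *CAV3*, 4.15 in *SGCB* and 1.35 in *SGCD*. The part of sex in these differences was not tested.

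At 180 dpc both BA foetuses were below the 3 CH foetuses in *SGCB* (4.60 to 4.86 against 4.92 to 5.13, difference −0.27, adjusted p = 0.797), *SGCD* (1.92 to 1.97 against 2.04 to 2.40, difference −0.23, adjusted p = 0.85) and *DAG1* (−1.19 to −1.18 against −1.10 to −0.86, difference −0.24). *ITGA7* was the other way round (7.95 to 8.27 against 7.84 to 7.92, difference 0.23, adjusted p = 0.848). In 26.1% of all genes tested the breeds did not overlap at this stage. limma called 0 of the 5 genes and 0.0252% of all genes, and before adjustment 1 gene, *SGCB*, was under 0.05, as were 6.3% of all genes. The largest breed difference of any *SGCB* probe at a single stage was here, on A_73_P316706, at −0.41 (95% confidence interval −0.65 to −0.18, adjusted p = 0.50).

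At 210 dpc *ITGA7* was the 1 gene of the 6 that separated the breeds, with BA at 7.66 to 7.85 and CH at 7.92 to 8.01 (difference −0.21), and the second *ITGA7* probe was also lower in each BA foetus. The breeds did not overlap in 10.5% of all genes at 210 dpc and in 18.5% at 260 dpc. At 260 dpc the leading probes of all 6 genes overlapped between the breeds, while the *SGCB* probe A_73_P279306 was lower in both BA foetuses (5.41 to 5.60 against 5.66 to 5.75). limma called 0 of the 5 genes and 0% of all genes at 210 dpc, and likewise 0 and 0% at 260 dpc. Before adjustment no gene of the 5 was under 0.05 at either stage.

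On 4 of the 6 slides a BA and a CH foetus of the same stage could be set side by side, 6 such pairs in all. BA was lower in 4 of 6 pairs for *CAV3*, with differences from −0.52 to 0.32, and in 4 of 6 for *SGCB*, from −0.52 to 0.11. It was lower in 3 of 6 for *SGCD*, *ITGA7* and *DAG1* and in 1 of 6 for *SGCA*. The rise of *CAV3*, *SGCB* and *SGCD* with age was present within scan days. On scan day 2, CH foetuses at 260 dpc exceeded those at 110 dpc by 1.90 in *CAV3*, 1.59 in *SGCB* and 1.13 in *SGCD*, and BA foetuses by 1.87, 1.44 and 1.41. On scan day 1, which held both stages for CH alone, the differences were 1.64, 1.45 and 0.64. *SGCA* was higher by 0.48 in CH and 0.58 in BA on scan day 2, and by 0.09 in CH on scan day 1. Some of the groups compared held a single foetus on a scan day.

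Males and females were compared with breed and stage in the model, since the sexes were unevenly spread over the groups. limma called 0 of the 5 genes, against 0.0504% of all genes. *SGCA* was lower in males by a log2 difference of −0.23 (95% confidence interval −0.45 to −0.002, adjusted p = 0.593), the only gene of the 5 under 0.05 before adjustment, where 7.78% of all genes were. The other leading probes lay between −0.16 and −0.08, with *DAG1* at 0.12.

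A wider list of 85 genes that work with these proteins was examined by role, from partners of dystrophin under the membrane to laminins outside it. Of the 85 genes 62 had a probe and 57 were tested. From 110 to 260 dpc 19 of the 57 rose, 18 fell and 20 were not called, with a median of −0.009. The shares called over all genes were 33.8% higher and 31.5% lower. None of the 57 was called between the breeds on average.

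Among relatives and partners of dystrophin, 2 of 3 with a probe were tested, of which 1 fell and 1 was not called. *DTNB*, a dystrobrevin best known outside muscle, fell by 0.87 (adjusted p = 2.97e-05). *DTNA*, the dystrobrevin of muscle, did not pass the filter and was higher by 1.46 in the fit without it (adjusted p = 1.97e-06), a gene named after its value was seen. Utrophin (*UTRN*), the close relative of dystrophin that is widespread in foetal muscle, had no probe by this rule and is not analysed here.

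Of 2 tested genes in the role of other sarcoglycans and sarcospan, 1 rose and 1 fell. *SSPN*, the small membrane protein that binds the sarcoglycans, rose by 1.15 (adjusted p = 2.92e-08). *SGCE*, the sarcoglycan found in many tissues besides muscle, fell by 0.72 (adjusted p = 1.81e-06), with medians of 5.32, 5.68, 5.44 and 4.65, so its lower level was that of 260 dpc.

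Of the enzymes that build the laminin-binding sugar chain of dystroglycan, 1 of 13 tested rose, 4 fell and 8 were not called. *DPM1*, a subunit of the enzyme that makes the mannose donor, rose by 0.56 (adjusted p = 0.000151), and was not called with the authors' unscaled values (0.17, adjusted p = 0.496). *POMK*, a kinase that acts on this chain, fell by 0.63 (adjusted p = 3.73e-07).

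Among 9 tested basement membrane genes 2 rose and 4 fell. *LAMB2*, a laminin beta chain, rose by 0.89 (adjusted p = 5.46e-07), and *LAMA4*, a laminin alpha chain of vessels and early muscle, fell by 1.06 (adjusted p = 7.39e-07). *LAMB2* was not called with the authors' unscaled values (0.50, adjusted p = 0.0596).

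Of 13 other integrins and adaptors 6 rose, 4 fell and 3 were not called. *PARVB*, a parvin that links integrins to actin, rose by 5.02 (adjusted p = 3.38e-13), from a median of 2.93 to 8.06. *ITGA6*, another laminin-binding integrin alpha chain, fell by 1.23 (adjusted p = 2.29e-06), whereas *ITGA7* was not called.

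Of 12 tested genes of caveolae and membrane repair 5 rose, 3 fell and 4 were not called. *CAVIN4*, the cavin of striated muscle that works with caveolin-3, rose by 2.68 (adjusted p = 6.21e-12), and its medians of 5.24, 6.58, 7.24 and 7.98 rose at each step, as those of *CAV3* did at 4.68, 5.69, 6.24 and 6.93. *CAVIN1*, the cavin needed for caveolae in most tissues, rose by 0.80 (adjusted p = 4.71e-07) and had the lowest breed p of the list, at −0.22 (adjusted p = 0.134). The rise of *CAVIN1* was not called with the authors' unscaled values (0.41, adjusted p = 0.0938), and its breed difference was 0.03 when the probes of the gene were averaged. *MYOF*, myoferlin, a membrane fusion protein of myoblasts, fell by 1.09 (adjusted p = 8.92e-06).

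Of 6 genes of the costamere cytoskeleton, the lattice that ties the outer sarcomeres to the membrane, 4 rose and 1 fell. *SYNM*, synemin, an intermediate filament protein that binds the dystrophin complex, rose by 2.93 (adjusted p = 4.36e-13). *SPTBN1*, a spectrin of most cell types, fell by 0.38 (adjusted p = 0.000163) and was not called with the slide as a block (−0.28, adjusted p = 0.0676).

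**Figure D4:**
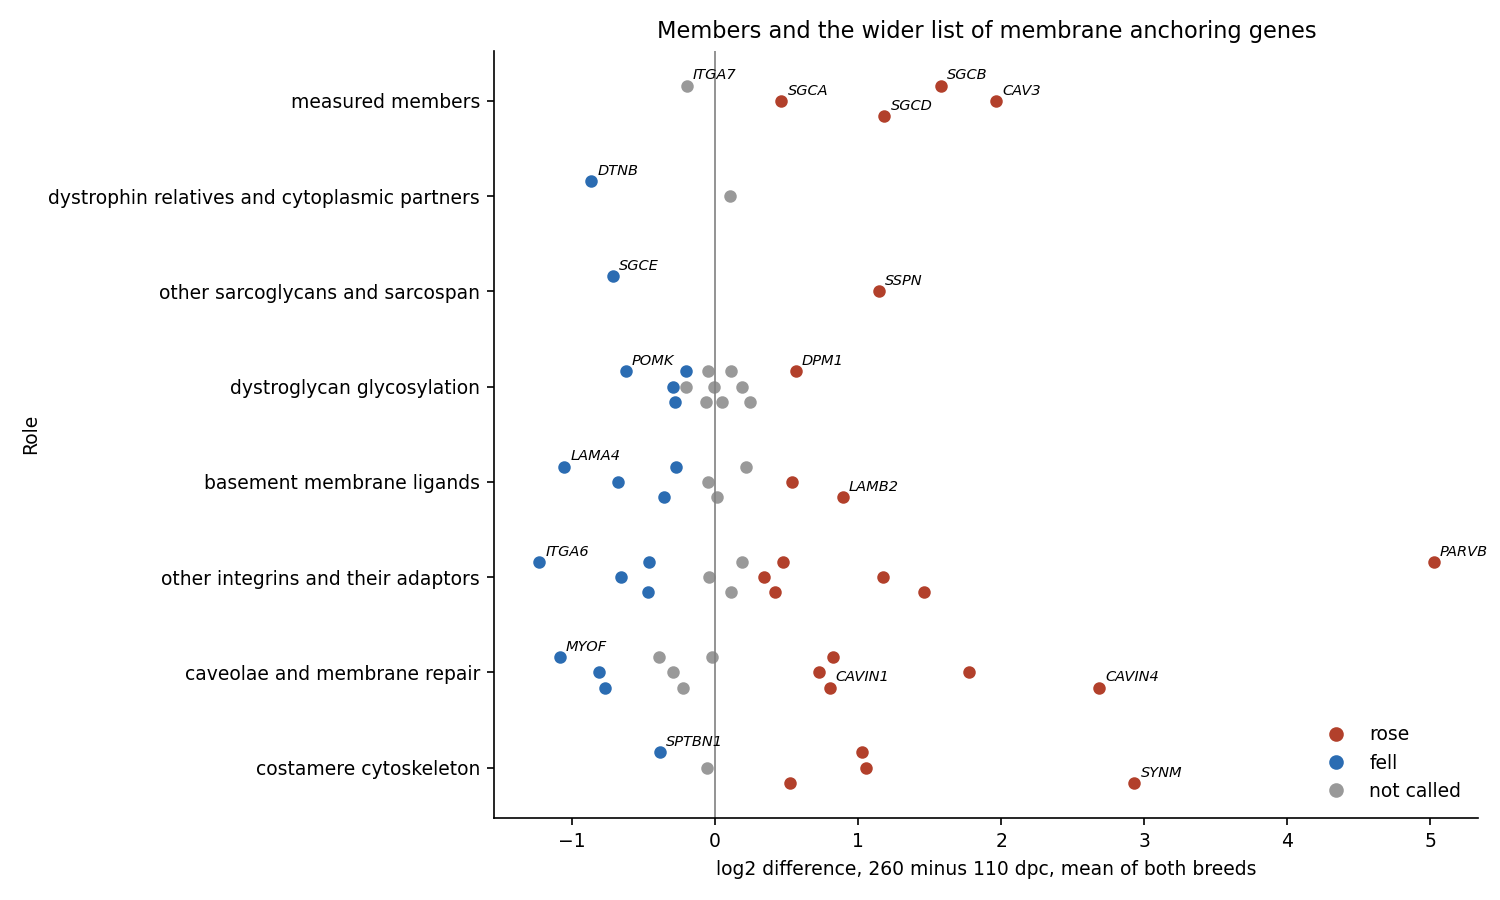
Log2 difference between 260 and 110 dpc, mean of both breeds (horizontal axis), for the leading probe of the 5 tested members and of the 57 tested genes of the wider list, grouped by role (vertical axis), with 1 point per gene, red where it rose, blue where it fell and grey where it was not called. Points of every role of the wider list lie on both sides of 0, from *ITGA6* at −1.23 to *PARVB* at 5.02.

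Markers of cell types moved over the same stages. Of 9 tested fibre markers 7 rose and 1 fell, with a median change of 2.19, and the mean level of the list per foetus went from 7.22 to 8.15 at 110 dpc to 9.20 to 9.49 at 260 dpc. *MYOG*, a regulator of fibre formation, was the marker that fell, by 0.78. The 3 satellite cell and myoblast markers with a probe fell, with a median of −2.18 and list means of 5.30 to 5.69 at 110 dpc and 2.49 to 2.72 at 260 dpc. Of 6 fibroblast and matrix markers 5 fell, with a median of −0.57. Both red blood cell markers tested fell, *HBB* by 2.46 and *HBA* by 1.64. Among 5 endothelial markers 3 rose and 1 fell, with a median of 0.43, and among 5 smooth muscle markers 1 rose and 2 fell, with a median of −0.43. Of 3 Schwann cell markers tested 2 rose, of 3 leukocyte markers 2 fell, and of 2 adipocyte markers *LPL*, which muscle fibres also make, rose by 3.97 while *FABP4* was at 1.42 (adjusted p = 0.17). The rises of *CAV3*, *SGCB* and *SGCD* were smaller than the median of the fibre markers. They lay above the changes of *DES* (1.03), *MYBPC1* (0.98), *MYOD1* (−0.05) and *MYOG* (−0.78) and below those of the other markers of that list. The part of a shift in cell types in these rises was not tested.

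The genes closest in course to each gene that rose were those with the lowest root mean square difference over the 8 group means, each gene centred on its own mean. For *CAV3* they were *NRAP* (0.09), *VAMP5* (0.10) and *LMOD3* (0.10), for *SGCB* *DOK5* (0.07), *TCEA3* (0.07) and *TRIP10* (0.08), for *SGCD* *RNF11* (0.06), *PRADC1* (0.06) and *NDUFB11* (0.08), and for *SGCA* *MRPS2* (0.05), *NFATC3* (0.05) and *GCSH* (0.06). These are the nearest of 7932 genes by a measure taken on the same foetuses, given as a description. None of the genes described was among the 3 nearest of another.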

How the data were processed

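Cy3-labelled RNA of 21 bovine foetuses was hybridized by the authors to single-colour Agilent arrays, 1 array per foetus. The deposited intensity values were extracted by the authors with Feature Extraction 10.7, with background and multiplicative detrending and no background subtraction. The authors' deposited value table holds log2 intensity, and 99.98% of its 649670 values differed by at most 0.01 from log2 of the scanner files' intensity, so it is not scaled between arrays.

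Control spots and 258 outlier spots were left out, spots of a probe were averaged, and each array's 75th percentile was subtracted from its log2 intensities before 2.69 was added. A probe was tested where its group mean was above 0 in at least 7 of 8 groups. Groups of breed and stage were compared in R 4.3.3 by limma 3.58.1, with tables read by data.table, version 1.17.8, and with 13 residual and 3.79 prior degrees of freedom and Benjamini-Hochberg adjustment over 20132 probes. Figures were drawn with matplotlib 3.10.9 and pandas 2.3.3 in Python 3.11.15. The number of arrays limits the precision. Scripts were tested on simulated data.

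Probe names come from RefSeq accessions looked up in assembly ARS-UCD2.0. Coordinates are left out because the array follows an older assembly. The genes described, the wider list and the marker lists were chosen with earlier results of these data known. From the wider list the text names *UTRN*, *SGCE* and *SSPN*, the largest called rise and fall of each role, and the gene with the lowest breed p where none is called. A further 3 genes of that list are not reported here and are left out of its counts. The comparison of rises between genes was chosen once their values were known.

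The counts of called genes in each comparison, and the stage changes, average breed differences and breed differences in the rise of the leading probes of tested genes, were recomputed under 15 alternatives and with each array left out. The values of *DAG1*, of further probes, of single-stage breed differences and of sex, and the permutation tests, were not. These were sex in the model, female foetuses only, the slide, scan day, replicate number or sire as a block, scan day 2 only, a trended and robust variance, the mean over a gene's probes, quantile normalization, scaling to the median, normexp (offset 50), the unscaled log2 values, and the expression filter dropped or replaced by detection. Foetuses with the same replicate number did not vary together (66 pairs, median correlation 0.03, against −0.003 for 126 other pairs). A foetus left alone in its group by an alternative was assumed to vary like the other groups.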

Additional observations from a re-analysis of the deposited data

How the results depend on the processing

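The rises of *CAV3* (1.57 to 2.06), *SGCB* (1.19 to 1.68) and *SGCD* (0.79 to 1.33) from 110 to 260 dpc were called under all 15 alternatives and with each of the 21 arrays left out, and no gene of the 5 was called between the breeds under any of them, or between the sexes where both sexes were present. Scaling matters for the smaller changes. The median change of all tested probes from 110 to 260 dpc was 0.13 with median scaling and −0.36 with the authors' unscaled values, and the share of higher genes among those called was 51.7% in the main setting, 59.7% with median scaling, 44.6% with quantile normalization and 23.9% with the unscaled values. The 5 genes then split into 4 higher and 0 lower, 4 and 0, 3 and 1, and 3 and 1, *ITGA7* being the lower gene.

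At 180 against 110 dpc 1 gene was called with the unscaled values, in place of 3, and at 260 against 210 dpc 0 in place of 3. At 210 against 180 dpc 0 genes in place of 2 were called with the unscaled values, in females alone, with the slide as a block and on scan day 2 alone, and with 1 array left out 1 to 2. On scan day 2 alone *SGCD* at 180 against 110 dpc (0.539, adjusted p = 0.0597) and *CAV3* at 260 against 210 dpc (0.437, adjusted p = 0.0538) were also lost. With quantile normalization *ITGA7* was called lower at 260 against 210 dpc (−0.461, adjusted p = 0.00229), in BA (−0.843) and in CH (−0.634). The replicate number as a block left 4 genes called from 110 to 260 dpc and added *SGCA* at 180 against 110 dpc (0.36, adjusted p = 0.0405), so that 4 were called there, as they were with the slide as a block (0.365, adjusted p = 0.0432) and without the BA foetus at 5.22 at 110 dpc (0.444, adjusted p = 0.0218). The numbers do not pair the foetuses, and 8 of 21 arrays correlated best with an array of their own number.

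Signs turned only for values that were not called. *ITGA7* at 180 against 110 dpc was 0.018 with median scaling, 0.016 with the unscaled values, 0.006 with the slide and 0.002 with the scan day as a block, 0.129 on scan day 2, and −0.086 to 0.075 with 1 array left out. At 260 against 210 dpc *ITGA7* was 0.024 with median scaling, and *SGCA* −0.044 with quantile normalization and −0.283 with the unscaled values. *SGCA* at 210 against 180 dpc was 0.052 with sex in the model, 0.058 with the slide as a block, 0.008 on scan day 2, and −0.070 to 0.047 with 1 array left out, and in CH from 110 to 260 dpc it was −0.047 with the unscaled values. The breed difference in the rise became 0.038 for *ITGA7* with median scaling, 0.045 with averaged probes and −0.145 to 0.111 with 1 array left out. For *SGCA* it became −0.015 with sex in the model and −0.182 in females. For *SGCB* it became −0.008, −0.051 and −0.16 with sex, in females and on scan day 2, and −0.060 to 0.243 with 1 array left out, and for *CAV3* −0.038 on scan day 2. The average breed difference of *CAVIN1* became 0.025 with the probes of the gene averaged. The causes were not tested. With 2 or 3 arrays per group the intervals stay wide, and *DAG1* was compared at a level under the median probe.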
